A study of Tetranychus urticae with 12 samples.

Results

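The 5 genes described here are the phytoene desaturase and carotenoid synthase/cyclase genes of the 2 carotenoid clusters of the spider mite Tetranychus urticae, taken as a fixed list of gene IDs from a table of 19114 IDs. By the number in their IDs, tetur01g11260 and tetur01g11270 lie on scaffold 1, and tetur11g04810, tetur11g04820 and tetur11g04840 lie on scaffold 11. The sources used here do not say which ID is a desaturase and which a synthase/cyclase, so no enzyme is given to a single ID. None of the 19114 IDs matched the RefSeq gene table used here, so no coordinates or sequences are given. All 5 genes were among the 14394 genes with enough counts to be tested.

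Carotenoids are yellow to red pigments that nearly all animals must take from their food. Spider mites are an exception, since their genome carries carotenoid synthesis genes of fungal origin, acquired by lateral gene transfer. In this pathway the synthase activity joins a pair of geranylgeranyl diphosphate molecules to colourless phytoene, phytoene desaturase adds the double bonds that give colour, as in lycopene, and the cyclase activity closes the rings of carotenes such as beta-carotene. Synthase and cyclase lie on 1 protein in fungi of the group from which the genes came. In T. urticae, carotenoids colour the eyes and the body, and loss of a phytoene desaturase gives albino mites that do not enter diapause.

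Messenger RNA was sequenced from whole mites of 3 strains reared on kidney bean away from insecticides and left untreated, with a stranded paired-end kit. Trizina is a field population from Greece described as resistant to several insecticides, and London and BC2018-14 are susceptible strains. Each strain is 1 population, so resistance and every other trait of a strain cannot be told apart, and the labels give no sex, stage or number of mites. Trizina and BC2018-14 entered with 4 libraries each and London with 3, at 26090006 to 39875401 counts per library, and the labels name the libraries by a number or letter.

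Relative to London, the scaffold 1 genes were higher and the scaffold 11 genes lower in both other strains. Both scaffold 1 genes were highest in Trizina, intermediate in BC2018-14 and lowest in London, with 12.5-fold and 21.9-fold more in Trizina than in London. All 3 scaffold 11 genes were highest in London, exceeding Trizina 2.47-fold to 9.42-fold and BC2018-14 3.31-fold to 98.9-fold. Levels are given as CPM, a gene's counts relative to the total of its library, with totals scaled by TMM factors (trimmed mean of M values). A gene is said to have changed where the p of edgeR's quasi-likelihood fit, adjusted after Benjamini and Hochberg over all genes tested, was below 0.05. In whole mites, fewer expressing cells and less RNA per cell cannot be told apart. Whether the strains differed in the sequence or copy number of these genes was not tested.

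**Figure D1:**
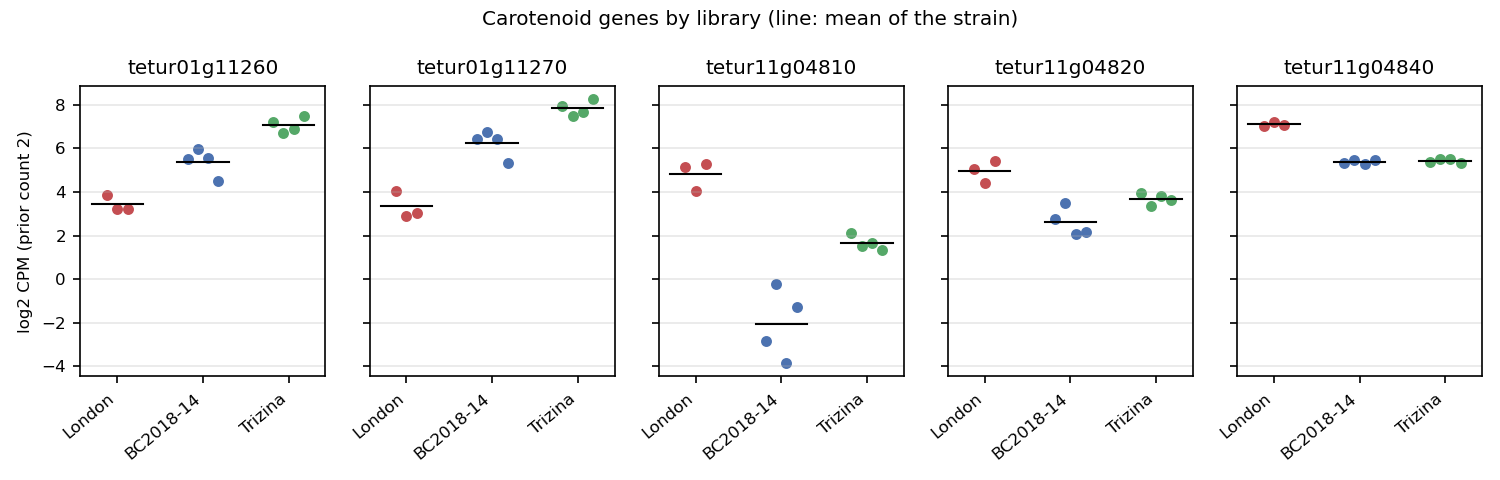
Level of each carotenoid gene (log2 CPM with a prior count of 2, vertical axis) in the 3 London, 4 BC2018-14 and 4 Trizina libraries, with 1 point per library and a line at the mean of the strain. The scaffold 1 genes climb from London to Trizina, whereas the scaffold 11 genes are highest in London, and tetur11g04810 is lowest in BC2018-14.

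The scaffold 1 gene tetur01g11260 had 14.7, 9.14 and 9.26 CPM in London libraries 2, 3 and 4. Its level was 45.5, 61.8, 46.7 and 22.8 CPM in BC2018-14 libraries a, b, c and e. In Trizina libraries 4, 5, 6 and 7 it was 147, 105, 119 and 177 CPM. The 3 strains did not overlap, and BC2018-14 library e was the lowest of its strain. The means were 11.02 ± 3.16 CPM in London (SD, n = 3), 44.2 ± 16.1 in BC2018-14 (SD, n = 4) and 137 ± 31.9 in Trizina (SD, n = 4). On the log2 scale tetur01g11260 was higher in Trizina than in London by 3.64 ± 0.357 (SE, adjusted p = 1.92e-05) and than in BC2018-14 by 1.63 ± 0.289 (SE, adjusted p = 0.00141). BC2018-14 exceeded London by 2.01 ± 0.334 (SE, adjusted p = 0.000651).

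Its neighbour tetur01g11270 followed the same order with a wider span. London libraries 2, 3 and 4 had 16.6, 7.48 and 8.15 CPM of it. BC2018-14 libraries a, b, c and e had 87.5, 109.3, 86.1 and 40.4 CPM. Trizina libraries 4, 5, 6 and 7 had 246, 178, 205 and 306 CPM. Again the strains did not overlap, and the libraries that were lowest and highest for tetur01g11260 in BC2018-14 and in Trizina were also lowest and highest for tetur01g11270. The means were 10.8 ± 5.09 CPM in London (SD, n = 3), 80.8 ± 29.0 in BC2018-14 (SD, n = 4) and 234 ± 55.6 in Trizina (SD, n = 4). Trizina exceeded London by 4.45 ± 0.425 on the log2 scale (SE, adjusted p = 1.57e-05) and BC2018-14 by 1.53 ± 0.328 (SE, adjusted p = 0.00428). Between the susceptible strains, BC2018-14 was above London by 2.92 ± 0.397 (SE, adjusted p = 0.000166), a 7.55-fold difference.

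On scaffold 11, tetur11g04810 showed the widest differences of the 5 genes on the log2 scale between BC2018-14 and the other strains. It had 35.1, 16.7 and 38.4 CPM in London libraries 2, 3 and 4. In Trizina libraries 4, 5, 6 and 7 it had 4.34, 2.81, 3.12 and 2.47 CPM. BC2018-14 libraries a, b, c and e held only 2, 22, 0 and 10 reads of it, or 0.0715, 0.786, 0 and 0.342 CPM. A count of 0 in library c allows up to 0.107 CPM, the value of 3 counts, for counting error only. The strains did not overlap, and BC2018-14 was close to the limit of detection in 2 of its 4 libraries. Means were 30.1 ± 11.7 CPM in London (SD, n = 3), 0.2999 ± 0.3559 in BC2018-14 (SD, n = 4) and 3.18 ± 0.814 in Trizina (SD, n = 4).

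Trizina therefore lay between the susceptible strains for tetur11g04810. Its level fell by 3.24 ± 0.525 on the log2 scale from London (SE, adjusted p = 0.000694) and was 3.39 ± 0.639 above BC2018-14 (SE, adjusted p = 0.00204). The log2 difference of BC2018-14 from London was -6.63 ± 0.659 (SE, adjusted p = 1.7e-05). The size of the differences from BC2018-14 depended on single libraries of that strain, of which library b held most of the reads. Both were wider without library b. Trizina was then 4.47 above BC2018-14 on the log2 scale (adjusted p = 0.000554, edgeR quasi-likelihood). The difference of BC2018-14 from London was then -7.70 (adjusted p = 9.43e-06). Both were narrower without library c, which held 0 reads, at 2.98 and -6.22, and without library a, at 3.07 and -6.31. Without library e they were 3.46 and -6.70.

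The next gene, tetur11g04820, had the same order of strains with smaller differences. London libraries 2, 3 and 4 had 32.7, 21.0 and 42.8 CPM. Trizina libraries 4, 5, 6 and 7 had 15.7, 10.1, 13.9 and 12.4 CPM. BC2018-14 libraries a, b, c and e had 6.69, 11.1, 4.09 and 4.41 CPM. London lay above every other library, whereas BC2018-14 library b was above Trizina library 5, so that these strains overlapped. The means were 32.2 ± 10.9 CPM in London (SD, n = 3), 6.57 ± 3.22 in BC2018-14 (SD, n = 4) and 13.02 ± 2.35 in Trizina (SD, n = 4). On the log2 scale the level in Trizina fell by 1.31 ± 0.336 from London (SE, adjusted p = 0.0106), and the level in BC2018-14 fell by 2.29 ± 0.345 from London (SE, adjusted p = 0.00029). The difference of 0.99 ± 0.323 between Trizina and BC2018-14 (SE, adjusted p = 0.0322) passed the test with all libraries. It did not pass without any 1 of Trizina libraries 4, 6 and 7 or BC2018-14 libraries a, c and e, with log2 differences of 0.82 to 1.01 and adjusted p of 0.0554 to 0.0848.

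In contrast, tetur11g04840 separated London from both other strains and varied little within them. It had 131, 147 and 136 CPM in London libraries 2, 3 and 4. Trizina libraries 4, 5, 6 and 7 had 41.9, 45.2, 45.4 and 40.5 CPM. BC2018-14 libraries a, b, c and e had 39.5, 44.1, 38.5 and 44.4 CPM. London stood above all other libraries, and the ranges of Trizina and BC2018-14 overlapped. Means were 138 ± 8.24 CPM in London (SD, n = 3), 41.6 ± 3.08 in BC2018-14 (SD, n = 4) and 43.2 ± 2.44 in Trizina (SD, n = 4). The level fell by 1.67 ± 0.0769 on the log2 scale from London to Trizina (SE, adjusted p = 1.65e-08) and by 1.73 ± 0.077 from London to BC2018-14 (SE, adjusted p = 1.14e-08). Between Trizina and BC2018-14 the log2 difference was 0.05 ± 0.0719 (SE, adjusted p = 0.583), with a 95% interval from -0.10 to 0.21, and its sign turned to -0.02 when libraries were scaled by their totals alone.

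**Figure D2:**
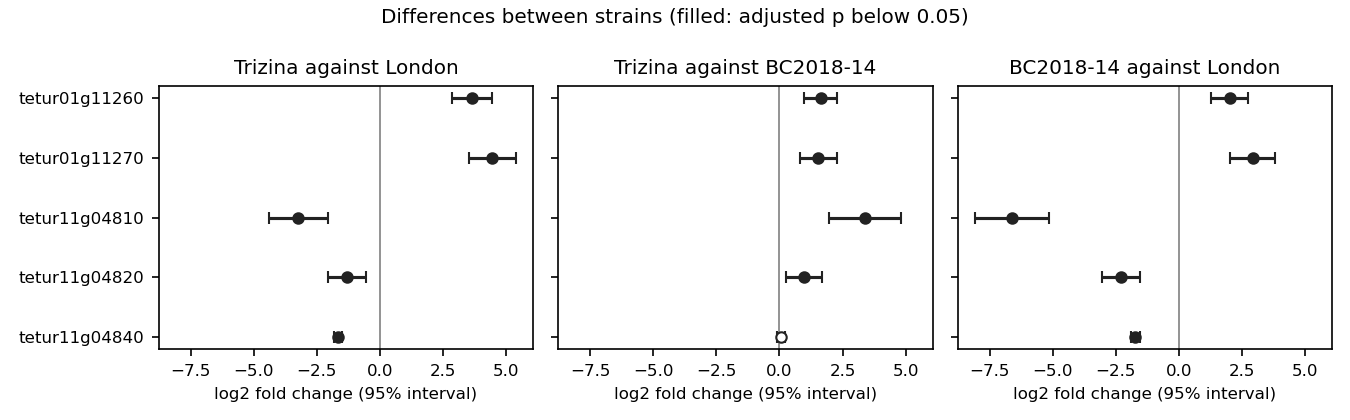
Log2 fold changes of the 5 carotenoid genes in the 3 pairs of strains (horizontal axis, positive where the first strain is higher), with 95% intervals from the quasi-likelihood fit and filled points where adjusted p was below 0.05. The scaffold 1 genes lie right of 0 in every pair, the scaffold 11 genes lie left of 0 wherever London is the second strain, and tetur11g04840 lies at 0.05 between Trizina and BC2018-14.

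Against London, all 5 genes changed in Trizina, 2 higher and 3 lower, each by at least 2-fold. Over all genes tested, 17.3% were higher and 19.2% lower by adjusted p in this comparison (edgeR quasi-likelihood), and 7.62% and 9.96% when a 2-fold difference was also required. The median log2 fold change was -1.31 over the 5 genes and 0.0007 over all genes, and the former is a middle value of clusters that moved in opposite directions. Only 1.44% of all genes tested had a higher log2 fold change over London than tetur01g11270, and 3.37% had a lower one than tetur11g04810.

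Against BC2018-14, 4 of the 5 genes were higher in Trizina and 0 were lower, and tetur11g04840 did not pass the test (edgeR quasi-likelihood). The 4 became 3 without any 1 of the 6 libraries on which the call of tetur11g04820 rested. By adjusted p alone 19.9% of all genes were higher and 19.7% lower. With a 2-fold minimum 3 of the 5 genes were higher, where 9.91% of all genes were higher and 5.18% lower, and tetur11g04820 was left out at 1.98-fold. The median log2 fold change was 1.53 over the 5 genes and 0.01 over all genes. The same Trizina libraries entered this comparison and the one with London.

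Between the susceptible strains all 5 genes changed, with 2 higher and 3 lower in BC2018-14 than in London, each by at least 2-fold. In this pair 22.7% of all genes were higher and 24.4% lower by adjusted p (edgeR quasi-likelihood), and 7.68% and 14% with the 2-fold minimum. The direction of each of the 5 genes against London was thus the same in the resistant strain and in the other susceptible strain, with the same London libraries behind both. The median log2 fold change was -1.73 over the 5 genes and 0.0011 over all genes.

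The scaffold 1 genes changed in all 3 pairs of strains in the order Trizina, BC2018-14, London from high to low, an order that 1.5% of all genes tested shared by the same test. The pair tetur11g04810 and tetur11g04820 changed in all 3 pairs in the order London, Trizina, BC2018-14, which 2.98% of all genes shared. For tetur11g04820 this order held only with the call between Trizina and BC2018-14 that was lost without any 1 of 6 libraries (adjusted p of 0.0554 to 0.0848, edgeR quasi-likelihood). The remaining gene, tetur11g04840, had neither order.

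London drew most reads of the 5 genes from scaffold 11, and the other strains drew most from scaffold 1. The scaffold 1 genes took 13.6, 8.26 and 7.41% of the summed CPM of the 5 genes in London libraries 2, 3 and 4. In BC2018-14 libraries a, b, c and e they took 74.2, 75.3, 75.7 and 56.2%, and in Trizina libraries 4, 5, 6 and 7 they took 86.4, 83.0, 83.85 and 89.7%. The mean shares were 9.76 ± 3.36% (SD, n = 3), 70.4 ± 9.45% (SD, n = 4) and 85.7 ± 3.03% (SD, n = 4), with no overlap between strains. These are shares of reads, not of transcripts, since the lengths of the genes were not used.

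The summed CPM of the 5 genes differed less between the susceptible strains than its parts. It was 222 ± 18.1 CPM in London (SD, n = 3), 174 ± 47.1 in BC2018-14 (SD, n = 4) and 430 ± 85.9 in Trizina (SD, n = 4), and is given without a test. The lowest Trizina library had 341 CPM and the highest library of the other strains 235 CPM, whereas London and BC2018-14 overlapped. In London 200 ± 16.5 CPM came from scaffold 11 (SD, n = 3), and in Trizina 371 ± 87.4 CPM came from scaffold 1 (SD, n = 4). In BC2018-14 the scaffold 11 genes gave 48.5 ± 5.68 CPM (SD, n = 4), close to the 59.4 ± 3.33 CPM of Trizina (SD, n = 4), and most of both came from tetur11g04840.

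**Figure D3:**
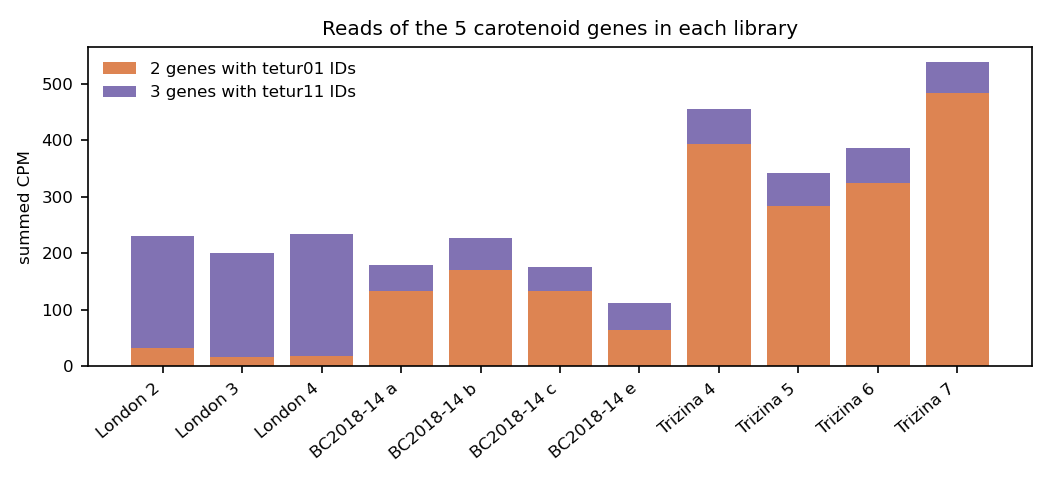
Summed CPM of the 5 carotenoid genes in each of the 11 libraries (bar height), divided into the 2 scaffold 1 genes and the 3 scaffold 11 genes. The scaffold 11 part dominates the London bars, at 185 to 217 CPM, and the scaffold 1 part dominates the Trizina bars, at 283 to 483 CPM.

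Within a strain, the scaffold 1 genes rose and dropped together from library to library. In Trizina their log2 CPM had SDs of 0.333 for tetur01g11260 and 0.337 for tetur01g11270 (n = 4), whereas the log2 ratio between them had an SD of 0.0206. In BC2018-14 the SDs were 0.612 and 0.626 and that of the ratio was 0.0559 (n = 4). London libraries kept a looser ratio, with SDs of 0.386 and 0.628 for the genes and 0.245 for the ratio (n = 3). The London values rested on fewer reads, 203 to 425 per gene and library against 3026 to 8292 in Trizina. How much of the looser ratio is counting error was not tested.

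The ratio itself was lower in London than in the other strains. There were 1.13, 0.819 and 0.881 reads of tetur01g11270 for each read of tetur01g11260 in London libraries 2, 3 and 4. In Trizina libraries 4, 5, 6 and 7 the ratio was 1.67, 1.70, 1.72 and 1.73, and in BC2018-14 libraries a, b, c and e it was 1.92, 1.77, 1.84 and 1.78. London lay below both other strains, and BC2018-14 lay just above Trizina without overlap. The gap between those strains, from 1.73 to 1.77, was narrow, and counting error was not taken into account. A ratio within a library does not depend on how libraries are scaled, and the comparison is a description without a test.

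For tetur11g04810 and tetur11g04820, reads stood at nearly equal numbers in London, with 1.07, 0.795 and 0.897 reads of tetur11g04810 for each read of tetur11g04820 in libraries 2, 3 and 4. In Trizina libraries 4, 5, 6 and 7 the ratio was 0.277, 0.277, 0.224 and 0.199. BC2018-14 libraries a, b, c and e had ratios of 0.0107, 0.0710, 0 and 0.0775. The strains did not overlap in this ratio, in the order London, Trizina and BC2018-14. Within strains the SD of the log2 ratio was 0.217 in London (n = 3), against 0.658 for tetur11g04810 and 0.518 for tetur11g04820. In Trizina it was 0.231 (n = 4), against 0.340 and 0.267. In BC2018-14, where tetur11g04810 had few reads, it was 1.26 (n = 4), against 1.61 and 0.653, and so above that of tetur11g04820 alone. These SDs were taken on log2 CPM with a prior count of 2. With 0 reads of tetur11g04810 in library c, the sizes of 1.26 and 1.61 depend on that prior.

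**Figure D4:**
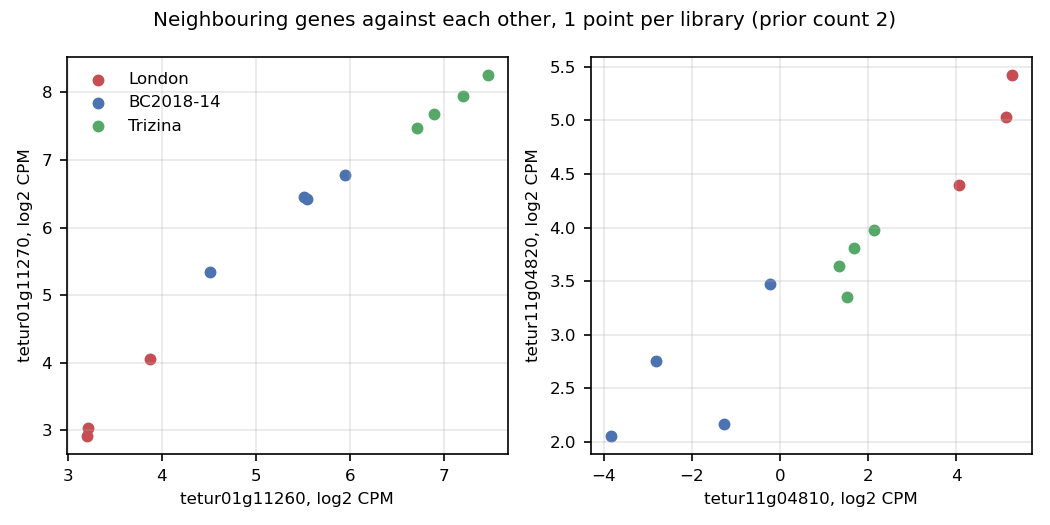
Log2 CPM (prior count of 2) of tetur01g11270 against tetur01g11260 and of tetur11g04820 against tetur11g04810, with 1 point per library coloured by strain. The scaffold 1 points lie close to a line within Trizina and BC2018-14, where the SD of the log2 ratio was 0.0206 and 0.0559. The scaffold 11 points scatter more in these strains, at 0.231 and 1.26. In London the SDs were 0.245 for scaffold 1 and 0.217 for scaffold 11.

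The 5 genes also differed in how much they varied between libraries of a strain. In BC2018-14, 90.4% of all genes tested had a smaller SD of log2 CPM than tetur01g11260, 90.9% than tetur01g11270, 99.7% than tetur11g04810 and 91.7% than tetur11g04820, where tetur11g04810 rested on few reads. In Trizina these shares were 80.1, 80.5, 80.8 and 72.7%. For tetur11g04840 they were 39.3% in BC2018-14, 24.1% in Trizina and 11.1% in London. Thus 4 of the 5 genes varied more than most genes in every strain, and tetur11g04840 varied less than most.

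Among genes with IDs next to the clusters, differences went in both directions. The list held 21 IDs, namely the 5 before and the 5 after each cluster and tetur11g04830 between the members, and 16 of them were tested. Against London 6 of the 16 changed in Trizina, 2 higher and 4 lower, with a median log2 fold change of -0.02 (edgeR quasi-likelihood). Against BC2018-14 6 changed, 2 higher and 4 lower, with a median of -0.04, but only 3 did without Trizina library 4 and 2 without BC2018-14 library a or e. Between BC2018-14 and London 9 changed, 6 higher and 3 lower, with a median of -0.0044. Over all genes tested, 17.3% were higher and 19.2% lower by adjusted p in the first pair. The shares were 19.9% and 19.7% in the second pair and 22.7% and 24.4% in the last. By adjusted p the neighbours' counts thus lay near the background. At 2-fold or more 1, 3 and 2 of the 16 changed in these pairs. Over all genes tested, 7.62, 9.91 and 7.68% were higher and 9.96, 5.18 and 14% lower with the 2-fold minimum.

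Before the scaffold 1 genes, tetur01g11240 was lower in Trizina, with 2.87 ± 1.24 CPM on column totals (SD, n = 4) against 7.05 ± 1.41 in London (SD, n = 3) and 10.9 ± 3.83 in BC2018-14 (SD, n = 4). Its level fell by 1.47 ± 0.336 from London (SE, adjusted p = 0.00478) and fell by 1.855 ± 0.319 from BC2018-14 on the log2 scale (SE, adjusted p = 9e-04), the opposite direction to its neighbours. After them, tetur01g11280 had 1 read in all libraries together. On scaffold 11, the log2 difference of tetur11g04800 before the members was 0.23 ± 0.0886 between Trizina and London (SE, adjusted p = 0.062) and did not pass the test. It was higher in BC2018-14 than in London by 0.29 ± 0.0887 (SE, adjusted p = 0.017). The ID between the members, tetur11g04830, had 54 reads in London, 12 in BC2018-14 and 13 in Trizina over all libraries of the strain, and tetur11g04850 after them had 6, 0 and 8. Both were too rare to be tested. Of the IDs farther away, tetur01g11300 and tetur11g04920 are named after their values were seen. The former had 67 reads in BC2018-14 and 0 in London and Trizina. On column totals London had 292 ± 108 CPM of the latter (SD, n = 3), Trizina had 194.5 ± 26.4 (SD, n = 4) and BC2018-14 had 97.6 ± 44.0 (SD, n = 4), the order of strains of tetur11g04810 and tetur11g04820. It was higher in Trizina than in BC2018-14 by 1.07 on the log2 scale (adjusted p = 0.0221) and fell by 1.84 from London to BC2018-14 (adjusted p = 0.00127), whereas its log2 difference of -0.77 between Trizina and London did not pass the test (adjusted p = 0.101).

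**Figure D5:**
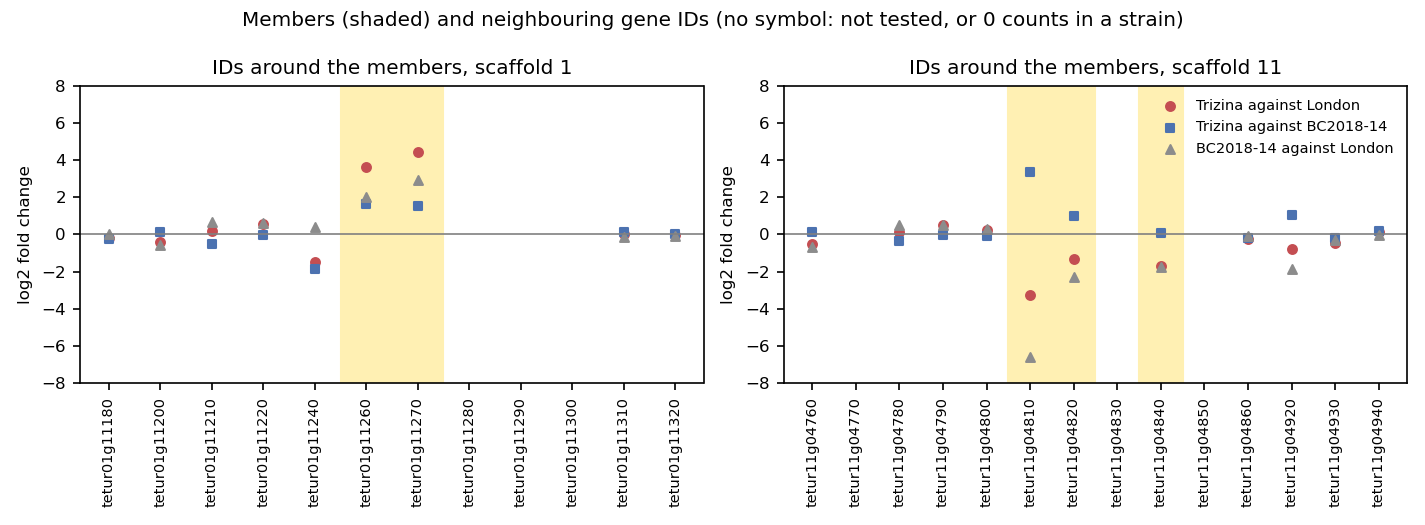
Log2 fold changes in the 3 pairs of strains (vertical axis) for the carotenoid genes, shaded, and the neighbouring gene IDs in the order of their IDs on scaffolds 1 and 11. IDs without a symbol were not tested or had 0 counts in a strain, and tetur01g11240 lies below 0 in both comparisons of Trizina while the shaded genes beside it lie above 0.

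Some other genes correlated highly with the carotenoid genes across the 11 libraries. The 5 carotenoid genes were left out of this search, which covered the 14389 other genes tested. Of those, the gene most like both scaffold 1 genes was tetur09g00350. Its Pearson correlation of log2 CPM was 0.988 with tetur01g11260 and 0.991 with tetur01g11270. It had 14.8 ± 6.58 CPM in London (SD, n = 3), 61.0 ± 22.6 in BC2018-14 (SD, n = 4) and 147 ± 29.1 in Trizina (SD, n = 4). The closest to tetur11g04810 was tetur24g00900 at 0.982, with 10.02 ± 3.47 CPM in London (SD, n = 3), 0.124 ± 0.136 in BC2018-14 (SD, n = 4) and 1.90 ± 0.424 in Trizina (SD, n = 4). For tetur11g04820 it was tetur04g03460 at 0.979, with 11.9 ± 4.34 CPM in London (SD, n = 3), 3.08 ± 1.19 in BC2018-14 (SD, n = 4) and 5.35 ± 0.871 in Trizina (SD, n = 4).

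The gene most like tetur11g04840 was tetur24g02490 at 0.996, where the Spearman correlation of the pair was 0.779. It had 539 ± 19.8 CPM in London (SD, n = 3), 0.0618 ± 0.0843 in BC2018-14 (SD, n = 4) and 0.0682 ± 0.0367 in Trizina (SD, n = 4). The means of BC2018-14 and Trizina lay below the value of 3 counts in their libraries, 0.0957 to 0.111 CPM. The 0.996 thus rested on the step between London and the other strains. A correlation of at least 0.95 was found for 45 genes with tetur01g11260, 76 with tetur01g11270, 29 with tetur11g04810, 17 with tetur11g04820 and 335 with tetur11g04840. By Spearman correlation these numbers were 53, 62, 36, 42 and 2. The libraries fall into 3 strains, and differences between strains enter these correlations, which are given as a description. By Spearman correlation tetur04g03460 was again the closest to tetur11g04820, jointly with 3 other genes, and other genes came first for the other 4.

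The authors' deposited tables listed 4 of the 5 genes for Trizina over London and 3 for Trizina over BC2018-14. Neither listed tetur11g04820, which passed the test in both pairs here (adjusted p = 0.0106 and 0.0322, edgeR quasi-likelihood). The reason for this difference was not tested. In the authors' deposited table for London the log2 fold changes were 3.60 for tetur01g11260, 4.43 for tetur01g11270, -3.37 for tetur11g04810 and -1.66 for tetur11g04840. In the authors' deposited table for BC2018-14 they were 1.64 for tetur01g11260, 1.54 for tetur01g11270 and 3.40 for tetur11g04810. London library 5, whose counts were read from the authors' deposited table for London alone, had 323, 303, 1089 and 3483 reads of the 4 listed genes. Scaled to the other London libraries over 1223 genes of that table, it lay within their range for each of the 4 genes. These genes were listed by a comparison that includes library 5, so this is not an independent check. The count of tetur11g04820 in library 5 could not be read.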

How the data were processed

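The authors deposited raw read counts per gene. Per the submitters' processing notes, HISAT2 2.1.0, SAMtools 1.10, featureCounts 1.6.0 and edgeR were used; build, annotation, strand setting and handling of reads with several matches are not stated in these notes, so counts of near-identical copies are uncertain. The authors also deposited 2 comparison tables with log2 fold changes and false discovery rates (adjusted p-values), per the file headers. The raw table named 12 libraries and held 11 columns. These were assigned because they equalled the named columns of the comparison tables at 1458 of 1458 and 967 of 967 genes. London library 5 had no such column and was left out of every fit, although the design had planned 4 London libraries.

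Counts were fitted with edgeR 4.0.16 (R 4.3.3): filterByExpr, TMM, quasi-likelihood with robust dispersion, strain as the only term, 11 libraries together. SEs are the log2 fold change divided by the square root of F. DESeq2 1.42.0 was an alternative. The steps were tested on simulated data in which all genes had the same dispersion. That simulation does not check the test at the spread of each member. No libraries agreed within sampling noise (chi-square per degree of freedom 6.75 to 149.5). The labels name no separate cultures: p-values rest on variation between libraries, possibly technical only. The genes, lists and tests were chosen with earlier results of these data known. Named genes were the 5 members, their immediate ID neighbours and, for each member, the most correlated gene outside the 5. A further 2 neighbours were named after their values were seen. A list of isoprenoid pathway genes could not be applied, since no table tied IDs to descriptions.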

Additional observations from a re-analysis of the deposited data

Results flagged for a closer look

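Trizina differed from London and from BC2018-14 in opposite directions for tetur11g04810 and tetur11g04820. The difference between both effects is the log2 difference of BC2018-14 from London, which was -6.63 for tetur11g04810 and -2.29 for tetur11g04820 (adjusted p = 1.7e-05 and 0.00029, edgeR quasi-likelihood). The Trizina libraries are shared by both effects.

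Among 24 groups of 4 libraries, 1 held a library far from the others, where chance gives about 1 in 20. It was the share of the scaffold 1 genes in the summed CPM of BC2018-14, where library e lay at 56.2% and the others at 74.2 to 75.7%, a gap of 0.921 of the whole range to the nearest. Both scaffold 1 genes were lowest in library e within BC2018-14, and tetur11g04840 was highest there.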

How the results depend on the processing

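Of 255 refits of the 15 log2 fold changes, 248 kept their direction and side of the threshold. They used other scaling, filters, DESeq2, only the strains compared, or left out a library. The 6 lost calls were all of tetur11g04820 between Trizina and BC2018-14, and the cause was not tested. The reversed value was tetur11g04840 in the same pair, at -0.02 (-0.0244) with library size alone, which was not called (adjusted p = 0.826, with 0.399 to 0.89 over all alternatives). With library size alone the median log2 fold change of all genes was 0.171 for Trizina and 0.248 for BC2018-14 against London, where it was 0.001 with TMM. With a 2-fold minimum, 1, 3 and 2 of the 16 neighbouring IDs tested were called against London, against BC2018-14 and between the susceptible strains. Over all genes tested, 7.62, 9.91 and 7.68% were higher and 9.96, 5.18 and 14% lower in these pairs. By adjusted p alone, leaving out a library gave 2 to 6 neighbouring IDs for Trizina against BC2018-14, where all libraries gave 6, with 3 without Trizina library 4 and 2 without BC2018-14 library a or e. The summed CPM in London was 199.5 on column totals. No paired analysis was possible because the columns used of London and Trizina share only 1 number. In BC2018-14, tetur11g04810 rested on 34 reads, so depth limits its fold changes.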
